A study of Mus musculus with 2 samples.

Results

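The 10 genes described here encode the transcription factors of T helper 2 (Th2) cells, the receptor and signal carrier of interleukin 4 (IL-4), and proteins that Th2 cells secrete. They were taken by symbol from the platform annotation: every probe set assigned to exactly 1 gene, with that gene being Gata3, Il4ra, Stat6, Maf, Gfi1, Nfil3, Il4, Il5, Il13 or Ecm1. This gave 18 of the 45037 probe sets, a probe set being a group of short probes against 1 transcript that is condensed to 1 signal. The probe sets were 6 for Maf, 3 for Il4ra, 2 for Stat6 and 1 for each of the other 7 genes.

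The signals come from 2 cultures of wild-type C57BL/6 mouse splenic CD4 T cells, each measured on 1 Affymetrix array. The cells were sorted magnetically and stimulated for 2 days through the T cell receptor and CD28, then kept for 3 more days, 5 in all. The CD103+ Th1 culture received IL-4 (3 ng/ml), interferon γ (10 ng/ml) and TGF-β (3 ng/ml), whereas the Th1 culture received IL-12 (1 ng/ml) and 11B11, an antibody that blocks IL-4 (1 µg/ml). CD103, for which the first culture is named, is the integrin chain αE. The number of mice, and whether their cells were pooled, is not in the labels, and both cultures shared strain, tissue and stimulation. With 1 array per culture no spread between replicates could be estimated, so every fold below compares these 2 arrays and nothing was tested. In such bulk RNA, fewer cells of a type and less RNA per cell cannot be told apart.

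In the textbook account, IL-4 binds a receptor made of the Il4ra product and the common γ chain, and JAK kinases on that receptor phosphorylate STAT6. STAT6 moves to the nucleus and induces Gata3, whose product binds regulatory elements of the linked Il4, Il13 and Il5 genes. c-Maf, encoded by Maf, acts on the Il4 promoter, and cells that make IL-4 in turn reinforce the program. The comparison asks how far these genes differed between the CD103+ Th1 and the Th1 culture. CD103+ Th1 was given IL-4 with interferon γ and TGF-β, and Th1 was given IL-12 and an antibody against IL-4. The effects of these additions cannot be told apart here.

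The median signals were 78.0 on the CD103+ Th1 array and 78.8 on the Th1 array, in arbitrary linear units, and the trimmed means were 498 and 497. The deposited table used here carries no detection call, so the median over both arrays, 78.5, served as a floor, below which signals were treated as background. A signal under the floor was set to it, which turns the fold into a lower bound, and a probe set under the floor on both arrays received no ratio. Among T cell markers, Cd3d read 18038 in CD103+ Th1 against 17966 in Th1, and Cd4 had 1081 in CD103+ Th1 against 973 in Th1. All 7 T cell markers that were named here lay above the floor on both arrays. On their brightest probe sets, 6 of the 7 were higher in CD103+ Th1, by up to 1.55-fold, and 1 was lower. Of all genes measured, 47.4% were higher. The median log2 ratio of the 7 markers was 0.24.

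Gata3, Maf, Il4ra, Ecm1 and Gfi1 had higher signals in CD103+ Th1, by 2.17-fold to 3.39-fold on the brightest probe set of each. Stat6 differed little, Nfil3 was lower, and the 3 cytokine genes lay near or under the floor. Of the 18 probe sets, 14 were above the floor on both arrays, 1 was above it in CD103+ Th1 alone and 3 were under it on both. Among the 15 with a ratio, 9 had a CD103+ Th1 signal at least 2-fold higher, where 5.25% of all 24036 probe sets with a ratio were. Of these 9, 4 belonged to Maf and 2 to Il4ra, so they are not 9 separate genes. None of the 15 was at least 2-fold lower, where 3.91% of all were. The probe set of Il4 received its ratio only through the CD103+ Th1 array.

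**Figure D1:**
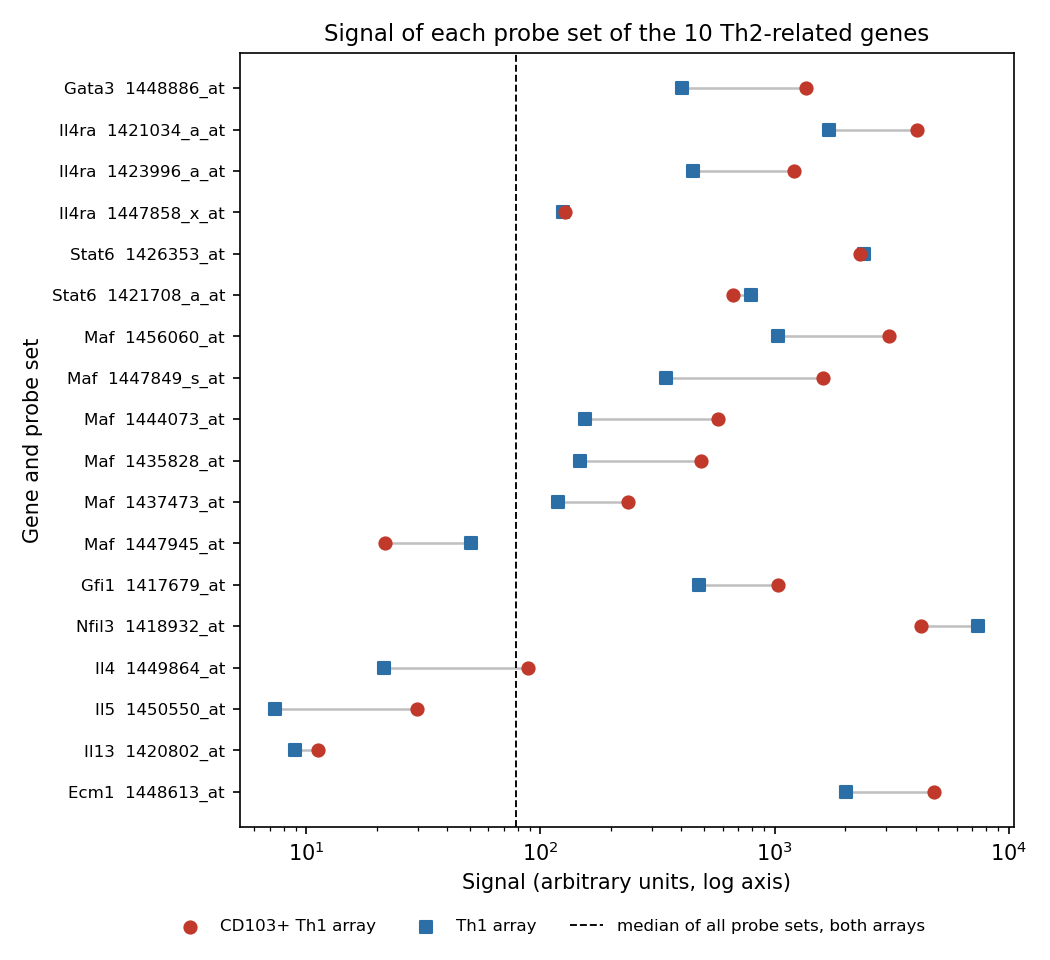
Signal of each of the 18 probe sets on the CD103+ Th1 array (red circles) and the Th1 array (blue squares), on a logarithmic axis in arbitrary units, with a dashed line at the median of all probe sets, 78.5. Probe sets of Gata3, Gfi1, Ecm1 and most of those of Maf and Il4ra show the red point to the right, Nfil3 shows it to the left, and Il5 and Il13 lie left of the line on both arrays.

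Gata3, the transcription factor that directs Th2 differentiation, had 1 probe set, 1448886_at. Its signal was 1361 in CD103+ Th1 against 401 in Th1, a log2 ratio of 1.76 or 3.39-fold. Both signals were well above the floor, and 98.7% of all probe sets with a ratio had a lower one. With a single probe set, this value has no second reading on the array.

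Maf was covered by more probe sets than any other of the 10 genes. On the brightest, 1456060_at, the signal was 3070 in CD103+ Th1 against 1033 in Th1, which is 2.97-fold higher. Probe set 1447849_s_at had 1612 in CD103+ Th1 against 343 in Th1, 4.69-fold higher. It was the only member probe set past 4-fold, a mark that 0.857% of all probe sets passed in that direction. The letter s in its name marks probes that match several transcripts. Probe set 1444073_at had 575 in CD103+ Th1 against 154 in Th1, 3.72-fold higher. Probe set 1435828_at had 484 in CD103+ Th1 against 147 in Th1, 3.29-fold higher. Probe set 1437473_at had 237 in CD103+ Th1 against 119 in Th1, 1.99-fold higher and so just under 2-fold. These 5 probe sets all pointed the same way, with a mean log2 ratio of 1.68. The sixth, 1447945_at, had 21.6 in CD103+ Th1 against 50.4 in Th1. Both signals lie under the floor, so it gave no ratio. The log2 ratios of the other 5 spanned 1.24, where the median span over 1950 genes with 3 or more probe sets above the floor on both arrays was 0.50 and the 90th percentile 1.05.

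Gfi1 encodes a zinc-finger repressor that promotes the expansion of Th2 cells. Its probe set 1417679_at had a signal of 1036 in CD103+ Th1 against 476.5 in Th1, a log2 ratio of 1.12 or 2.17-fold. It was the smallest of the differences past 2-fold among these genes, and 95.9% of all probe sets with a ratio had a lower one. Nfil3, which encodes the basic leucine zipper factor NFIL3 or E4BP4, a regulator of cytokine genes in Th2 and other T helper cells, went the other way. Its probe set 1418932_at had 4237 in CD103+ Th1 against 7422 in Th1, a log2 ratio of -0.81 or 1.75-fold lower. This is under the 2-fold mark, but only 6.31% of all probe sets with a ratio had a lower one.

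Il4ra, the gene of the IL-4 receptor α chain, had 3 probe sets that did not give the same picture. The brightest, 1421034_a_at, had a signal of 4076 in CD103+ Th1 against 1714 in Th1, 2.38-fold higher. Probe set 1423996_a_at had 1210 in CD103+ Th1 against 449 in Th1, 2.70-fold higher. The third, 1447858_x_at, had 128 in CD103+ Th1 against 125 in Th1, with a log2 ratio of 0.03. It lies close to the floor, and the letter x in its name marks probes that can bind other transcripts. The mean over the 3 probe sets was a log2 ratio of 0.90 or 1.87-fold, under the 2-fold mark that the brightest passed. The span of 1.40 between them exceeded the 90th percentile given above.

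Stat6, which carries the signal from this receptor, was close to equal on both arrays. Probe set 1426353_at had 2308 in CD103+ Th1 against 2406 in Th1, a log2 ratio of -0.06. Probe set 1421708_a_at had 664.5 in CD103+ Th1 against 793 in Th1, a log2 ratio of -0.26. Both were slightly lower in CD103+ Th1, by 1.04-fold and 1.19-fold, and both were well above the floor. An array of this kind reads the amount of mRNA and says nothing of STAT6 phosphorylation.

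Ecm1 encodes extracellular matrix protein 1, a secreted glycoprotein that mouse Th2 cells make and that has a role in their exit from lymph nodes. Its probe set 1448613_at had 4793 in CD103+ Th1 against 2020 in Th1, a log2 ratio of 1.25 or 2.37-fold. The transcript was thus well above the floor in both cultures and higher in CD103+ Th1.

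**Figure D2:**
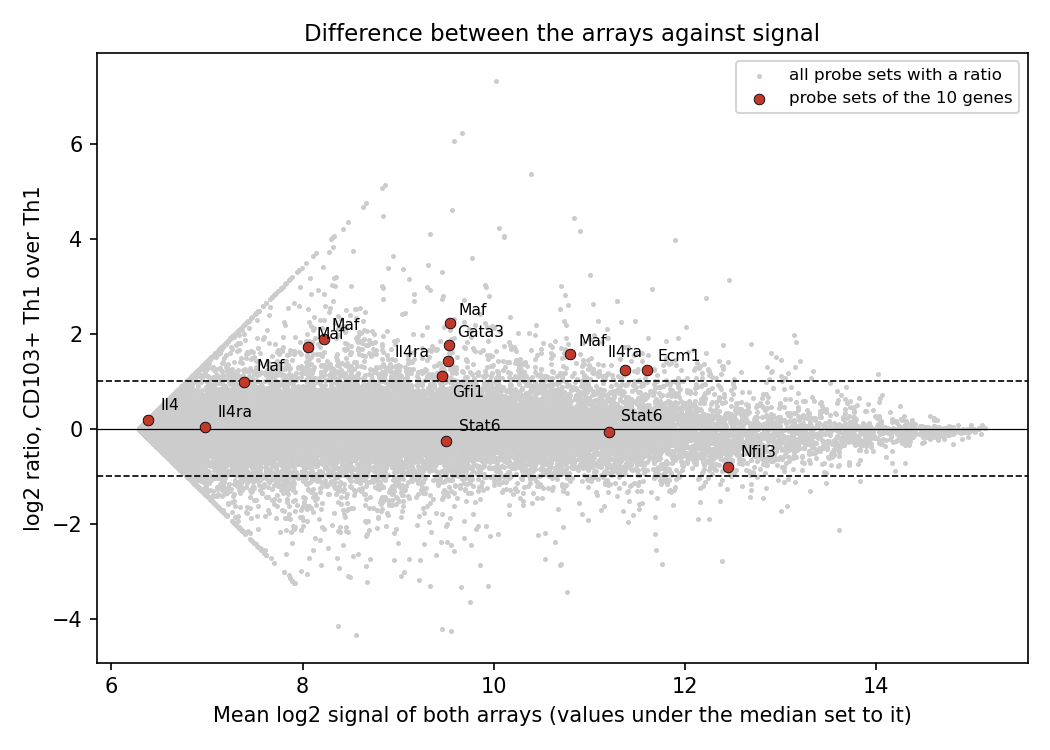
Log2 ratio of CD103+ Th1 over Th1 against the mean log2 signal of both arrays for the 24036 probe sets with a ratio (grey) and the 15 of the 10 genes among them (red, labelled by gene). Dashed lines mark 2-fold, and 9 red points lie above the upper line, the others between the lines.

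The spread of the ratios over all probe sets gives a scale for these differences. The 6508 probe sets whose brighter signal was at least 16 times the floor had log2 ratios from -0.65 at the 10th percentile to 0.73 at the 90th, and 5.84% of them were at least 2-fold higher. Of the 7 member probe sets in that range, 5 were at least 2-fold higher. In the range from 4 to 16 times the floor, 6.76% of 8127 probe sets were at least 2-fold higher, and 4 of 5 member probe sets were. Between 1 and 4 times the floor it was 3.55% of 9401, and none of the 3 member probe sets. Several probe sets of Maf and Il4ra enter these counts separately. On 1 probe set per gene, the brightest, 8 of the 10 genes had a ratio, and 5 were at least 2-fold higher, against 5.04% of the 11194 genes measured. None was at least 2-fold lower, where 4.87% of genes were. The median log2 ratio of these 8 genes was 1.18, beside -0.03 over all genes measured.

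The cytokine genes Il4, Il5 and Il13 encode the cytokines that define Th2 cells, and they sit close together on mouse chromosome 11. IL-4 drives the Th2 program and antibody class switching, IL-5 sustains eosinophils, and IL-13 acts on epithelium and macrophages. The 250 bases before the annotated start of each gene are shown because the Gata3 product is known to act at this locus and the Maf product at the Il4 promoter. They come from RefSeq, build GRCm38.p6, and are written 5′ to 3′ in the direction of the gene. Capitals mark matches on either strand to 3 sets of letters: for GATA factors AGATAA or TGATAA, with the last base A or G, for STAT6 TTCNNNNGAA, and for one end of a MAF site TGCTGA. No 2 of the capitalised matches overlap.
Il4, chr11:53618666-53618915, minus strand: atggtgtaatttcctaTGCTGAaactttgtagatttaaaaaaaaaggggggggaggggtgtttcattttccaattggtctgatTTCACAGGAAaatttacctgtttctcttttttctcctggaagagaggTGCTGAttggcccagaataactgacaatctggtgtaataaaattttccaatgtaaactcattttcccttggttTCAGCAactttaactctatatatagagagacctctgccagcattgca
Il5, chr11:53720544-53720793, plus strand: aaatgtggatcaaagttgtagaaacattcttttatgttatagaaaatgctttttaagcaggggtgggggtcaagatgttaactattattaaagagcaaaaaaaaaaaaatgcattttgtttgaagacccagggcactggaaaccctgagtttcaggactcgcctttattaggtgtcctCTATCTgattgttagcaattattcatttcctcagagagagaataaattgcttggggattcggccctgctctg
Il13, chr11:53634703-53634952, minus strand: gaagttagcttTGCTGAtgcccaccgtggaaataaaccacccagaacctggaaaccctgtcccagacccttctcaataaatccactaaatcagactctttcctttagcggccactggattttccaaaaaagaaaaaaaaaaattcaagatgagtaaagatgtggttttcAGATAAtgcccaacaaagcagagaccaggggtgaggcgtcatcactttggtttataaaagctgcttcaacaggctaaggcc

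The Il4 window held 1 STAT6 match, TTCACAGGAA, from base 167 to base 158 before the start, and 3 MAF half-sites, the nearest from base 47 to 42, but no GATA letters. The Il5 window held 1 GATA match, from base 72 to 67, and the Il13 window held 1 GATA match, from base 81 to 76, and 1 MAF half-site farther out. Windows of the same length held GATA letters in 26.5%, STAT6 letters in 5.85% and the MAF half-site in 16.1% of the 32851 promoters in the table. A second annotated start of Il4, inside the gene, had 1 GATA match in its window and none for the other letters. Over all 11 windows of the 9 member genes listed in the table, 4 had GATA letters, 1 had STAT6 letters and 4 had the MAF half-site. Besides the cytokine genes, Ecm1 had a GATA match, from base 35 to 30, and Gata3 and Gfi1 each had a MAF half-site. The windows of Ecm1 and Gata3 lie before an annotated start that is not at the outer end of the gene. A second window of Gfi1 had no matches. Such matches describe the letters in these windows and do not show that a factor was bound.

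The signals of the 3 cytokine genes were low in both cultures. Il4, on probe set 1449864_at, had 88.7 in CD103+ Th1, just above the floor, and 21.4 in Th1, under it. Its fold is therefore a bound, at least 1.13-fold higher. Il5, on 1450550_at, had 29.6 in CD103+ Th1 against 7.34 in Th1, both under the floor. Il13, on 1420802_at, had 11.3 in CD103+ Th1 against 8.94 in Th1, also under the floor. In all 3 the CD103+ Th1 signal was the higher, but signals of this size are not told from background here, so no ratio was taken for Il5 and Il13. Gata3, whose product acts on these genes, thus had a higher signal in a culture where Il5 and Il13 lay under the floor. The cells were harvested 3 days after the 2-day stimulation, and the labels name no later restimulation. Whether this bears on the low cytokine signals was not tested.

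The genes beside these 3 on the chromosome were mixed. Rad50, whose introns hold the control region of the mouse Th2 cytokine genes, lies between Il13 and Il5 and had 1260 in CD103+ Th1 against 1410 in Th1, 1.12-fold lower. Kif3a, a kinesin gene on the other side of Il4, had 369 in CD103+ Th1 against 419 in Th1, 1.13-fold lower on its brightest probe set, while its 4 probe sets spanned log2 ratios of -0.19 to 0.31. Neither gene reached 2-fold. Irf1, next to Il5, encodes a transcription factor induced by interferon γ and was 4.41-fold higher, with 8668 in CD103+ Th1 against 1966 in Th1. Pdlim4, which encodes a LIM domain protein, was at least 7.13-fold higher, with 559 in CD103+ Th1 against 9.10 in Th1. Its ratio was received only through the CD103+ Th1 array. P4ha2, for a prolyl hydroxylase subunit that modifies collagen, was 2.47-fold lower, with 771.5 in CD103+ Th1 against 1903 in Th1. Of the 10 genes of the neighbour list that had a ratio, Irf1 and Pdlim4 passed 2-fold upwards and P4ha2 downwards, where 5.04% and 4.87% of all genes measured did, and the median log2 ratio was 0.08.

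**Figure D3:**
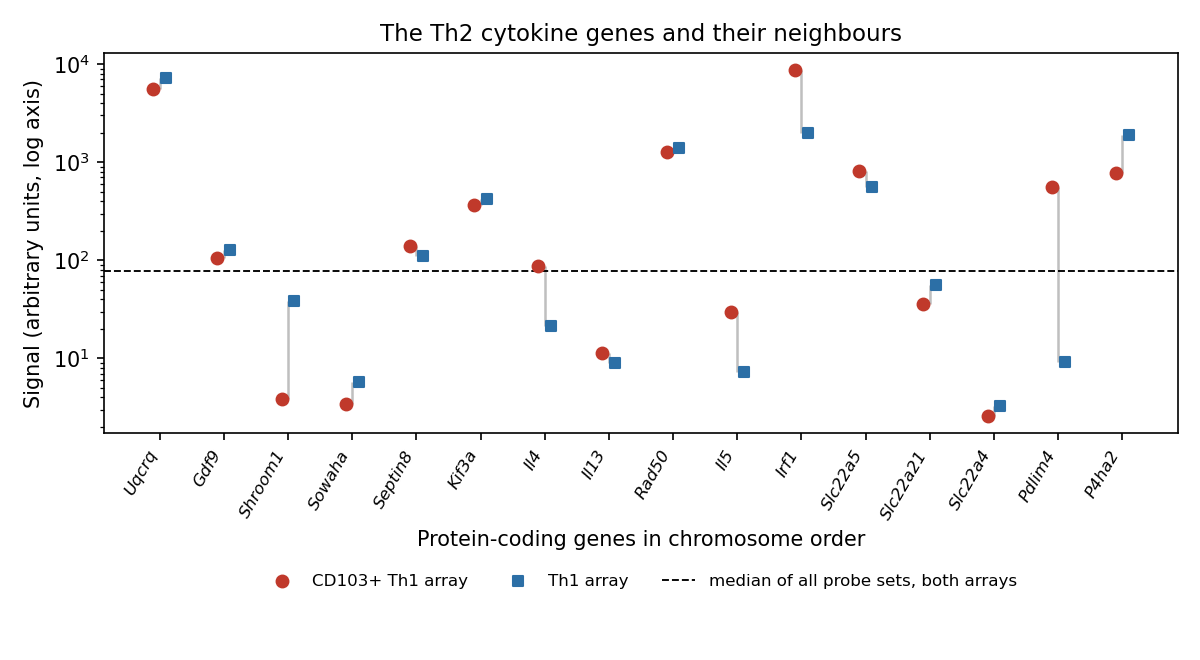
Signals on the CD103+ Th1 array (red circles) and the Th1 array (blue squares) of the 16 protein-coding genes from 6 genes before Il4 to 6 after Il5, in chromosome order, on a logarithmic axis in arbitrary units. Il13 and Il5 lie under the dashed median of 78.5 on both arrays while Rad50 between them lies above it, and Irf1 and Pdlim4 show the widest gaps with CD103+ Th1 higher.

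Of 17 named partners of the IL-4 receptor and regulators of its signal, 14 had a ratio. On their brightest probe sets, all 14 genes of this list with a ratio were above 0 on the log2 scale, where 47.4% of all genes measured were, with a median of 0.65. At least 2-fold higher were 3 of the 14, where 5.04% of all genes measured were, and none was at least 2-fold lower, where 4.87% were. Socs3, which encodes a feedback inhibitor of cytokine receptors, was 3.79-fold higher, with 6108 in CD103+ Th1 against 1612 in Th1. Jak2, a kinase better known from the interferon γ receptor than from that of IL-4, was 2.61-fold higher on the brighter of its probe sets and had a log2 ratio of 0.65 on the other. Socs5, for an inhibitor reported to bind the mouse IL-4 receptor, was 2.10-fold higher, with 418 in CD103+ Th1 against 199 in Th1. The kinase genes that serve the receptor directly differed less, with Jak1 1.47-fold and Jak3 1.17-fold higher. Il13ra1, Il13ra2 and Irs1 were under the floor in both cultures.

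On the brightest probe set of each, factors that support Th2 differentiation other than the 10 genes did not reach 2-fold in either direction. A second probe set of Irf4, a factor required for Th2 cells, had a log2 ratio of -1.05, beside -0.26 on the brightest. Of the 11 genes of this list with a ratio, 7 were above and 4 below 0, with a median log2 ratio of 0.27. Over all genes measured, 47.4% were above 0. Notch1, a receptor that can induce Gata3, was 1.73-fold higher, with 2767 in CD103+ Th1 against 1600.5 in Th1. Satb1, a chromatin organiser of the Th2 cytokine locus, was 1.70-fold lower on its brightest probe set, with 5685 in CD103+ Th1 against 9664 in Th1, while its 4 probe sets with a ratio spanned -0.92 to 0.04 in log2 ratio. On the brightest probe sets the list held no difference of the size seen for Gata3 or Maf.

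Factors known to oppose the Th2 program were divided. Tbx21, which encodes T-bet, the Th1 factor that antagonises GATA3, was 2.14-fold lower, with 705 in CD103+ Th1 against 1510 in Th1. Bcl6, a repressor that restrains Th2 cytokines in mice, was at least 3.36-fold higher, with 263 in CD103+ Th1 against 30.5 in Th1. Bcl6 thus received its ratio only through the CD103+ Th1 array, and its other probe set gave no ratio. All 8 genes of the list had a ratio, 1 past 2-fold each way on the brightest probe sets, where 5.04% of all genes measured passed it upwards and 4.87% downwards. Their median was -0.20, and 0.17 with the floor at the 75th percentile of all signals. The 6 probe sets of Runx1, for a factor that represses Gata3, spanned log2 ratios of -0.76 to 1.75.

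The list of other Th2 cytokines and surface markers was not limited to genes particular to Th2 cells. Il10 and Csf2, for example, were above the floor in Th1. Among the 9 genes of this list with a ratio, 4 passed 2-fold upwards and 1 downwards, where 5.04% and 4.87% of all genes measured did. Their median log2 ratio was 0.84. Il9 and Ccr8 received a ratio only through the CD103+ Th1 array, and Csf2 only through the Th1 array. Il9, for the mast cell growth factor IL-9, was at least 6.25-fold higher, with 491 in CD103+ Th1 against 36.9 in Th1. Ccr8, a chemokine receptor gene of regulatory T and Th2 cells, was at least 3.48-fold higher, with 273 in CD103+ Th1 against 17.6 in Th1. Il10, for the anti-inflammatory cytokine IL-10, was 3.14-fold higher, with 1580 in CD103+ Th1 against 504 in Th1. Crlf2, which encodes the receptor of the epithelial cytokine TSLP, was 2.09-fold higher, with 5628 in CD103+ Th1 against 2691 in Th1. Csf2, for GM-CSF, was at least 3.09-fold lower, with 7.08 in CD103+ Th1 against 242 in Th1. The cytokine genes Il3 and Il6 and the Th2 surface receptor genes Ccr3 and Ptgdr2 lay under the floor on both arrays. Il9 and Il10 were thus above the floor in CD103+ Th1 while Il5 and Il13 were under it.

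**Figure D4:**
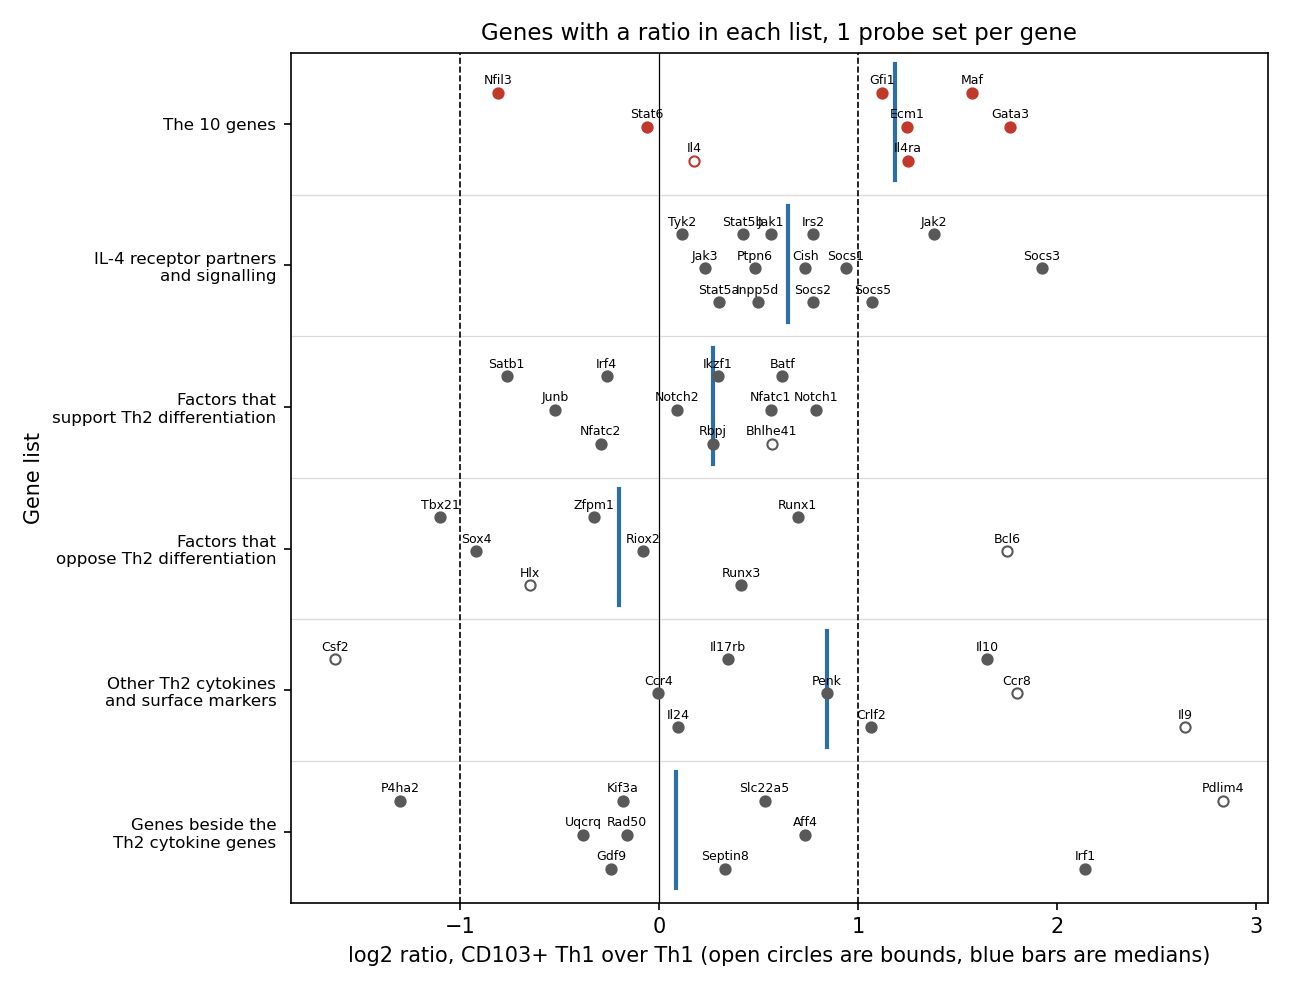
Log2 ratio of CD103+ Th1 over Th1 for each gene with a ratio, on its brightest probe set, in the 10 genes (top row, red) and the 5 lists around them (grey), with open circles for bounds, blue bars for the median of each row and dashed lines at 2-fold. The 10 genes have 5 points right of the upper 2-fold line and their median at 1.18, and the list of factors that support Th2 differentiation has no point outside the lines.

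Cells other than CD4 T cells can also carry high GATA3 or make these cytokines. Of 11 mast cell, basophil and eosinophil markers, 10 lay under the floor on both arrays, among them Fcer1a with 1.51 in CD103+ Th1 against 17.8 in Th1 and Mcpt8 with 2.28 in CD103+ Th1 against 6.74 in Th1. Only Kit was above it, with 338 in CD103+ Th1 against 250 in Th1, and the summed signal of the list was 522 in CD103+ Th1 against 451 in Th1. This sum and those of the lists below include signals under the floor. Of 5 markers of NKT and innate lymphoid cells, 3 had a ratio and none was past 2-fold, and the list summed to 652 in CD103+ Th1 against 759 in Th1. Rora was the brightest of them, with 374 in CD103+ Th1 against 528 in Th1. Of 6 B cell markers, 4 were below the floor in both cultures, and the list summed to 457 in CD103+ Th1 against 314 in Th1. Cd79b was the brightest in CD103+ Th1, with 244 in CD103+ Th1 against 75.8 in Th1, at least 3.11-fold higher. It received its ratio only through the CD103+ Th1 array. Of 8 myeloid and dendritic cell markers, 5 lay under the floor and the sum was 399 in CD103+ Th1 against 732 in Th1. Cd68 was the brightest in Th1, at 104 in CD103+ Th1 against 233 in Th1, 2.25-fold lower. The CD8 T cell markers had higher signals in CD103+ Th1. Cd8a was 4.41-fold higher, with 2054 in CD103+ Th1 against 466 in Th1, and its 5 probe sets spanned log2 ratios of 0.24 to 2.16. Cd8b1 was 2.28-fold higher, with 1593 in CD103+ Th1 against 697 in Th1. Their part in the differences of the 10 genes was not tested.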

How the data were processed

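RNA was isolated in Trizol and carried a biotin label, per the labels' protocols. The deposited values are linear signal intensities, 1 for each probe set on each array, and the submitters' processing notes name the software GCOS. Version, scaling target and filters are not given in the sources used here. Medians and 2% trimmed means were close on both arrays, so no scaling was added.

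Probe sets were named through the supplied platform annotation (34945 of 45037 with 1 symbol, 932 with several, 9160 with none listed). Of those with 1 symbol, 34741 were matched by gene identifier to the GRCm38.p6 gene table. The others kept their annotated symbol. The log2 ratio of CD103+ Th1 over Th1 was taken per probe set with a floor at the median signal. For gene counts the probe set of highest mean log2 signal was used. Python 3.11.15, numpy 2.4.6 and pandas 2.3.3 were used, and the steps were tested on simulated data.

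The 10 genes, the 5 lists around them and the 6 marker lists were chosen with earlier results of these data known. Named were the 10 genes, list genes at least 2-fold different (up to 6 per list, otherwise the 2 most different), and markers at least 4-fold different or brightest. Jak1, Jak3, Irf4, Runx1, Rad50, Kif3a, Cd4, Fcer1a, Mcpt8, Cd8b1 and the genes given as under the floor were named after their values were seen. Some list genes are not reported here. With 2 arrays, no likeness of pattern to other genes could be computed. Alternatives were 3 scalings, floors at the 25th and 75th percentile, a pseudocount at the 25th percentile, no suffixed probe sets, the mean of probe sets, and 1.5-fold and 4-fold thresholds.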

Additional observations from a re-analysis of the deposited data

How the results depend on the processing

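Direction was kept by every member gene with a ratio under each of the up to 8 alternatives that gave it a value. This was largely fixed in advance, because another floor or a pseudocount cannot reverse the sign of a ratio. For genes with 1 probe set and no suffix, leaving out suffixed probe sets or taking the mean repeats the main value. All alternatives used the same arrays. Log2 ratios stayed between 1.53 and 1.78 for Gata3, 1.55 and 1.68 for Maf, 1.06 and 1.13 for Gfi1, 1.24 and 1.27 for Ecm1, -0.16 and -0.05 for Stat6, and -0.81 and -0.76 for Nfil3. Il4ra was 0.90 with the mean of its probe sets, and had no value without suffixed probe sets, as all 3 of its probe sets carry one. Il4 was at least 2-fold higher with the floor at the 25th percentile, at a log2 ratio of 2.05, and with the pseudocount, at 1.37. Its Th1 signal of 21.4 was barely above that lower floor of 21.2 and under the main floor of 78.5. Il4 had no value with the floor at the 75th percentile. At 4-fold, 1 member probe set and 0 member genes were higher, where 0.857% of all probe sets with a ratio were. At 1.5-fold, 10 member probe sets and 5 member genes were higher, where 13.8% of all probe sets with a ratio were. At 1.5-fold, 1 probe set and 1 gene, Nfil3, were lower, where 11.6% of all probe sets with a ratio were. The shares over all genes were not computed at 4-fold and 1.5-fold, so the gene counts there have none beside them. With the floor at the 25th percentile 1 probe set was lower, the sixth of Maf, at -1.22, where 6.93% of all 36793 with a ratio were. The median of the factors that oppose Th2 differentiation was 0.17 with the floor at the 75th percentile and -0.47 without suffixed probe sets. That of the other Th2 cytokines and surface markers was 0.58 with the higher floor, 0.16 with the pseudocount and 1.65 without suffixed probe sets. The cause was not tested. No paired analysis was possible because each culture had 1 array. The number of arrays and the height of the background limit all values near 78.5.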
